A study of Mus musculus with 6 samples.

Results

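Wnt signalling was followed through 59 genes, namely the Wnt ligands, their receptors and co-receptors, the cytoplasmic and nuclear relay, the secreted antagonists, the R-spondin branch and the genes that release ligands or restrain the relay. They were chosen by their place in the pathway and listed by symbol, and 58 of the 59 had a probe set that the platform's annotation gives to a single gene, out of 19937 genes tested. Tcf7 was not analysed here, and Wnt4 was the only one of the 58 with more than 1 such probe set, of which the brightest was used. RNA came from 2 mouse pheochromocytoma cell lines, with 3 arrays each: MPC cells, which go back to Nf1 knock-out mice and are described as well differentiated, and MTT cells, a fast-growing line from liver metastases of MPC cells. The Nf1 background is therefore common to both groups, no agent was given to either line, and the comparison is between 2 cultured lines without normal adrenal medulla. The sources used here give no age or strain of the animals and do not say whether either line is 1 clone. Both were kept in DMEM with fetal bovine and horse serum. The MPC arrays were recognised by title and cell type, because their fields for tissue, disease and growth carry the same entries as those of MTT cells. For MTT cells the paper describes 3 separate samples, but the sources do not state that the 3 arrays of either line hold independent cultures. The p-values therefore cover only the spread between these arrays, which may be technical.

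Wnt proteins are secreted lipid-modified ligands that bind Frizzled receptors together with LRP5 or LRP6. Binding recruits Dishevelled and holds back a destruction complex of AXIN, APC and kinases, so that beta-catenin accumulates, enters the nucleus and activates genes with TCF and LEF factors; some of these targets, such as Axin2, feed back on the pathway. ROR and RYK receptors carry beta-catenin-independent signals. In the adrenal medulla and in tumours derived from it, the pathway is studied in relation to neural crest development and tumour growth.

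Values are log2 signals after the RMA method (background subtraction, quantile normalization and summary of the probes of a gene), and a difference is MTT minus MPC on that scale. Background differs between probe sets, so levels of different genes were not ranked, and folds at low signal are compressed. As a guide to background, 1027 olfactory receptor genes, which neither line should use, had a median signal of 5.16 and a 95th percentile of 7.15. The median over all probe sets was 7.73 to 7.77 on the 6 arrays, and no array duplicated another. Of 11 measured chromaffin markers all 11 lay above 7.15 on every array, with a mean level of 11.71 to 11.74 in MTT and 11.70 to 11.72 in MPC samples. Of these 11, 4 passed the test between the lines, in both directions: Slc18a1 (0.27) and Gata3 (0.19) were higher and Cyb561 (-0.17) and Chgb (-0.15) lower in MTT cells. Markers of other cell types had mean levels of 6.37 to 7.995 in MTT and 6.38 to 7.99 in MPC samples, their ranges overlapped in each of 6 lists, and none of their 34 measured genes passed the test between the lines. Some of them also lay above 7.15 on every array. These were 2 of 7 adrenal cortex, 3 of 4 Schwann and sustentacular and 5 of 7 fibroblast markers. Of the others, 0 of 5 endothelial, 2 of 5 leukocyte and 1 of 6 hepatocyte markers did so. A signal above 7.15 therefore does not by itself show that a gene is used. In bulk RNA, fewer cells using a gene and less RNA of it per cell cannot be told apart.

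The lines differed in a small number of Wnt genes and by small amounts. Sfrp2 and Fzd6 fell and Axin2 rose most firmly in MTT cells, while every Wnt ligand, beta-catenin and the R-spondin branch stayed short of the threshold. By limma with Benjamini-Hochberg adjustment over all genes, at an adjusted p under 0.05, 3 members were higher (Axin2, Sfrp4 and Fzd5) and 5 lower (Sfrp2, Dkk3, Fzd6, Tcf7l2 and Lrp5), and 50 did not pass. That is 13.8% of the members, beside 7.87% of all genes tested, of which 3.93% were higher and 3.94% lower. The median difference was 0.01 over the members and -0.01 over all genes, and the median absolute difference was 0.05 for each. The MTT and MPC arrays did not overlap in 15 members, 7 higher and 8 lower, beside 27.2% of all genes, 11.7% higher and 15.4% lower. Without adjustment, 11 members had a limma p under 0.05, beside 20.5% of all genes. The share of members lay near that of all genes under several alternatives. With ordinary variances 2 members passed (3.45% beside 4.13% of all genes), centred per chromosome 4 (6.9% beside 6.63%), and among genes above the olfactory percentile 8 of 46 (17.4% beside 15.8%). The number called was 4 (6.9% beside 4.63%) without MTT replicate 1, 3 (5.17% beside 4.47%) without MTT replicate 2 and 5 (8.62% beside 4.99%) without MTT replicate 3. It was 5 (8.62% beside 5.34%) without MPC replicate 1, 4 (6.9% beside 5.04%) without MPC replicate 2 and 7 (12.1% beside 6.4%) without MPC replicate 3. The calls are therefore described gene by gene, and nothing is read from the members' share as a whole.

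**Figure D1:**
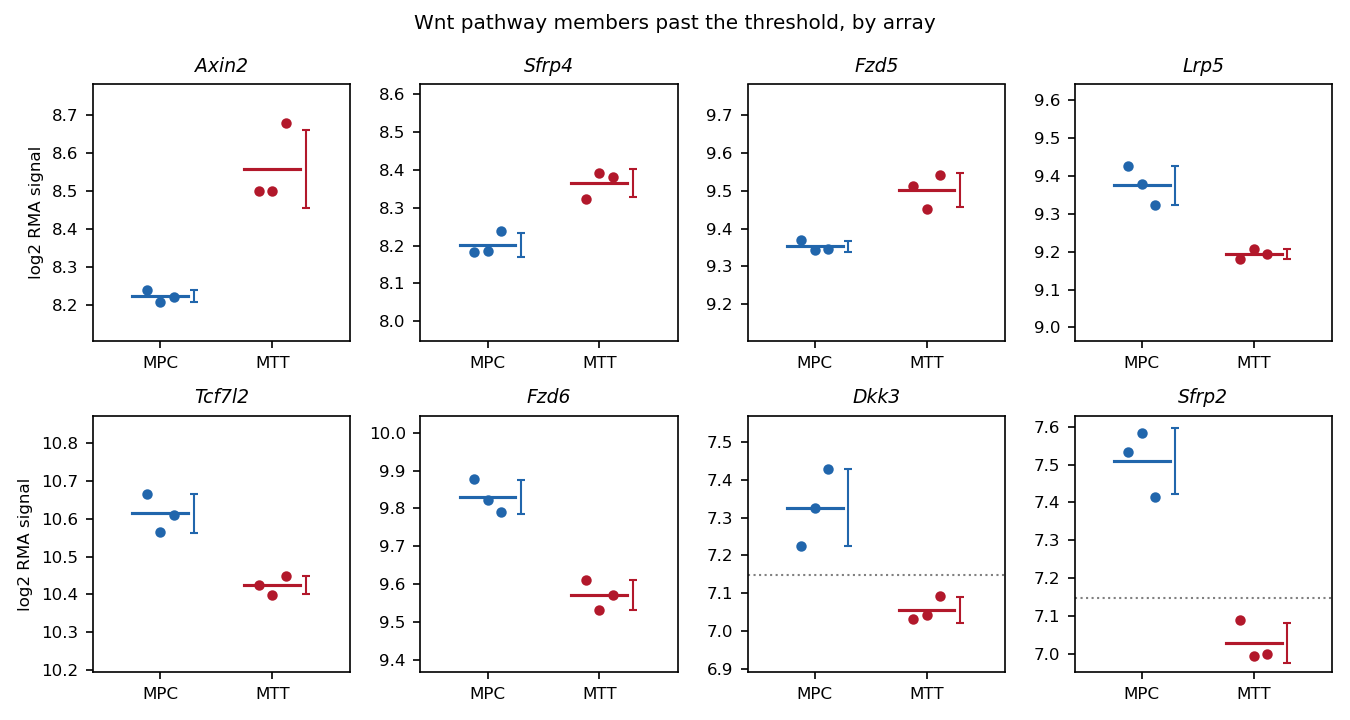
log2 RMA signal (vertical axes, all of equal span) of the 8 members past the threshold on the 3 MPC arrays (blue) and 3 MTT arrays (red). Points are arrays, horizontal bars means of 3 and error bars 1 SD; the dotted line is the olfactory 95th percentile of 7.15, above which all MPC arrays and none of the MTT arrays of Sfrp2 and Dkk3 lie.

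None of the 16 Wnt ligands passed the test in either direction, and their differences ran from -0.13 for Wnt5a to 0.12 for Wnt3. Wnt3, a ligand of the beta-catenin branch, had the smallest p of the 16. Its signal was 7.48, 7.43 and 7.57 on the MTT arrays and 7.35, 7.33 and 7.43 on the MPC arrays. The lines were barely separate, with the lowest MTT array level with the highest MPC array to 2 decimals, and the difference of 0.12 did not pass (limma adjusted p = 0.176). Wnt5a, which acts mainly outside the beta-catenin branch, read 6.18 ± 0.09 (SD, n = 3) in MTT samples against 6.30 ± 0.13 (SD, n = 3) in MPC samples. The 95% intervals of all 16 ligands lay between -0.29 and 0.23. On every array 10 ligands were above the olfactory percentile and 4 (Wnt1, Wnt2b, Wnt5a and Wnt7a) at or below it, so a change in the latter would be hard to see. Wnt2 and Wnt16 lay on both sides. A signal above that percentile does not by itself show that a ligand is used. Porcn, the enzyme that attaches the lipid to Wnt proteins, read 8.13 ± 0.01 (SD, n = 3) with MTT and 8.12 ± 0.0031 (SD, n = 3) with MPC arrays, a difference of 0.01 with a 95% interval of -0.06 to 0.08.

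Among the 14 receptors and co-receptors, 1 Frizzled was higher, 1 Frizzled and 1 co-receptor were lower, and 11 did not pass. Fzd6, a Frizzled known for planar polarity, read 9.61, 9.53 and 9.57 on the MTT arrays and 9.88, 9.82 and 9.79 on the MPC arrays. Every MTT array lay below every MPC array, and the difference of -0.26 (standard error 0.04) was past the threshold at a limma adjusted p = 0.00575, a signal 1.20-fold lower in MTT cells. It passed whichever of the 6 arrays was left out (limma adjusted p 0.0114 to 0.0313) and in all 10 other settings. Fzd5, a Frizzled of the beta-catenin branch, went the other way, at 9.51, 9.45 and 9.54 in MTT and 9.37, 9.34 and 9.35 in MPC samples. Its arrays did not overlap either, but the difference of 0.15 passed only narrowly (limma adjusted p = 0.0429), and it missed whichever of the 6 arrays was left out (adjusted p 0.0586 to 0.133). Lrp5, a co-receptor of Frizzled on chromosome 19, read 9.18, 9.21 and 9.19 in MTT and 9.43, 9.38 and 9.32 in MPC samples. All MTT values were lower, by -0.18 on average (standard error 0.04, limma adjusted p = 0.0222), but it passed on leaving out MPC replicate 3 alone and missed on leaving out any of the other 5 arrays (highest adjusted p = 0.0841). Lrp6, the partner co-receptor, had means of 10.41 ± 0.02 (MTT) and 10.41 ± 0.0092 (MPC; SD, n = 3 each), with a 95% interval of -0.06 to 0.08.

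The other Frizzleds did not pass, with differences from -0.07 for Fzd2 to 0.08 for Fzd7. Among the receptors of the beta-catenin-independent branch, Ror1 had a difference of 0.11 (limma adjusted p = 0.230), Ror2 of 0.10 (limma adjusted p = 0.339) and Ryk of -0.07 (limma adjusted p = 0.292). The arrays of Ryk did not overlap and those of Ror1 and Ror2 did. On all 6 arrays 12 of the 14 receptors were above the olfactory percentile, and Fzd2 and Fzd8 lay on both sides of it.

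**Figure D2:**
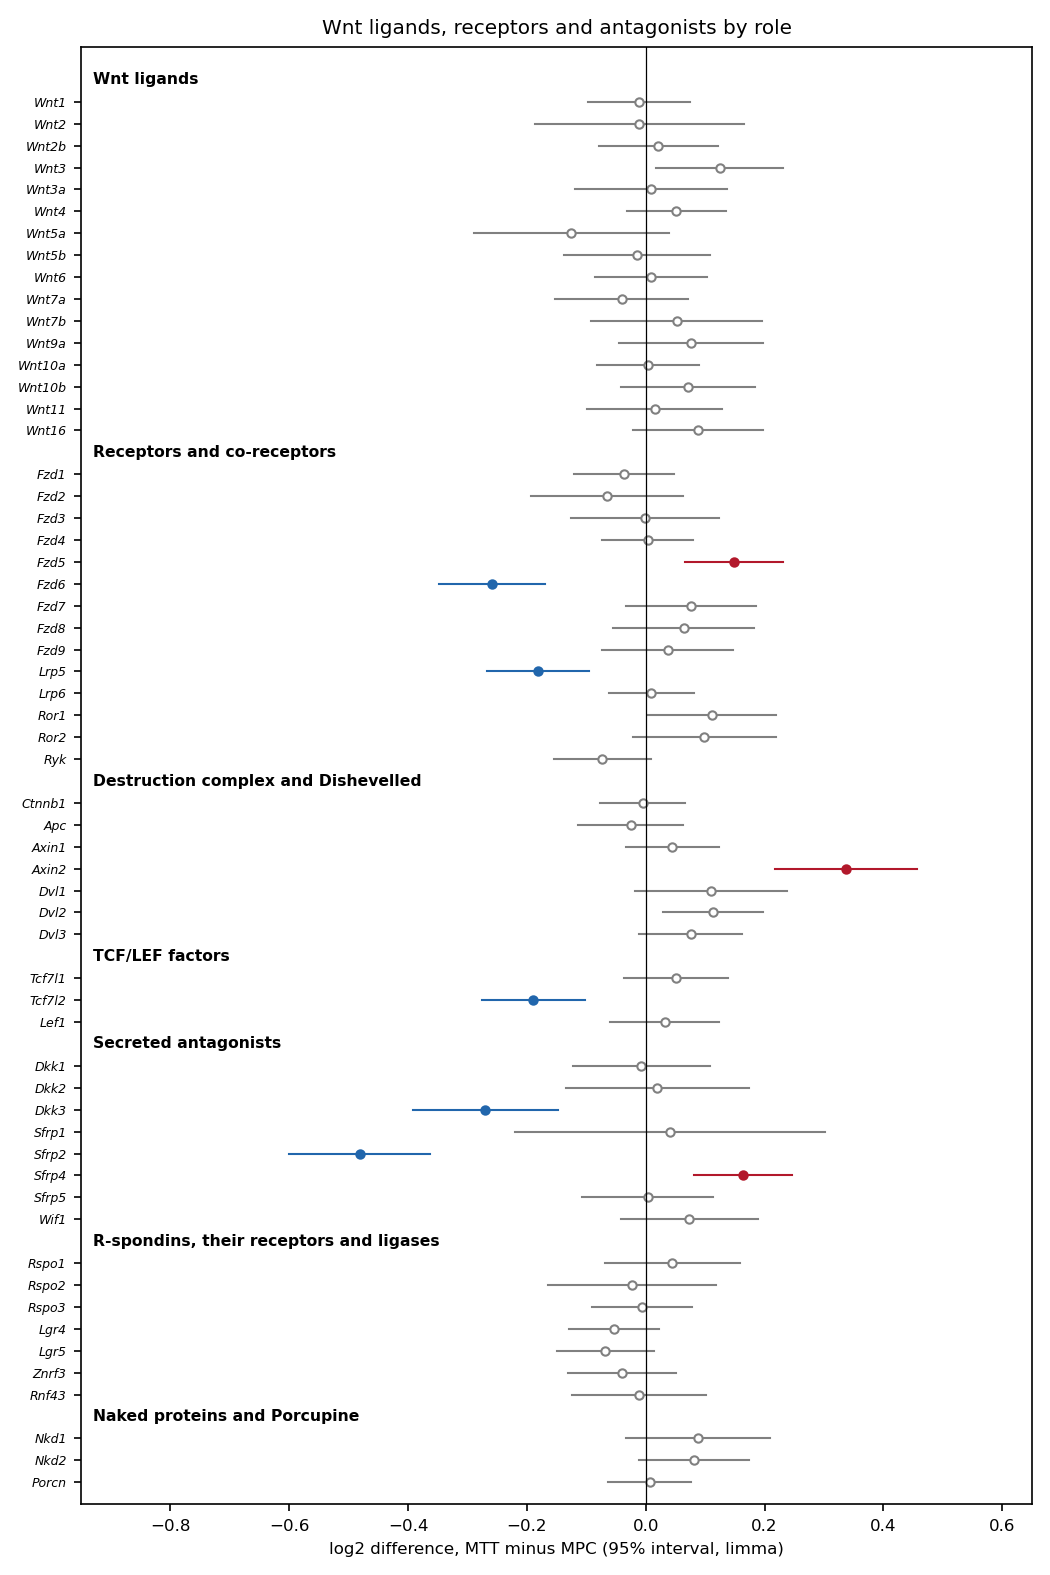
log2 difference (MTT minus MPC, horizontal axis) of the 58 measured members, ordered by role, with the 95% interval from limma. Filled points passed the threshold (red higher, blue lower in MTT cells) and open points did not; Sfrp2 at -0.48 and Axin2 at 0.34 are farthest from 0.

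Of 7 genes of the relay from Dishevelled to beta-catenin, Axin2 alone passed. Axin2, a scaffold of the destruction complex that beta-catenin itself induces, read 8.50, 8.50 and 8.68 on the MTT arrays and 8.24, 8.21 and 8.22 on the MPC arrays. All 3 MTT arrays lay above the MPC arrays, and MTT replicate 3 was the highest. The difference was 0.34 (standard error 0.05, limma adjusted p = 0.00663), a signal 1.26-fold higher in MTT cells, and 0.28 without MTT replicate 3. It passed whichever of the 6 arrays was left out (limma adjusted p 0.00787 to 0.0301) but not with ordinary variances (adjusted p = 0.0779). Its paralogue Axin1 had means of 10.45 ± 0.03 (MTT) and 10.41 ± 0.02 (MPC; SD, n = 3 each) and did not pass (limma adjusted p = 0.524). Ctnnb1, which encodes beta-catenin, had means of 12.62 ± 0.0046 (MTT) and 12.63 ± 0.02 (MPC; SD, n = 3 each), and its 95% interval ran from -0.08 to 0.07. Apc had a difference of -0.03 with an interval of -0.11 to 0.06. The 3 Dishevelled genes had differences of 0.11 for Dvl1, 0.11 for Dvl2 and 0.08 for Dvl3, and none passed (limma adjusted p = 0.119 for Dvl2, the smallest). Dvl2 passed when dim genes, those under the median signal, were dropped (adjusted p = 0.0322) and Dvl1 without MPC replicate 1 (adjusted p = 0.0464). Axin2 and Tnfrsf19, a receptor gene that beta-catenin is known to induce, both rose in MTT cells. The targets Ephb3 (-0.29) and Slc2a1 (-0.21) fell. As examples, the 250 bases before annotated starts of Axin2 and Tnfrsf19 are shown, 5′ to 3′ on the strand of the gene. They come from RefSeq on build GRCm38.p6, at chr11:108920099-108920348 (plus strand) and chr14:61037988-61038237 (minus strand).
Axin2: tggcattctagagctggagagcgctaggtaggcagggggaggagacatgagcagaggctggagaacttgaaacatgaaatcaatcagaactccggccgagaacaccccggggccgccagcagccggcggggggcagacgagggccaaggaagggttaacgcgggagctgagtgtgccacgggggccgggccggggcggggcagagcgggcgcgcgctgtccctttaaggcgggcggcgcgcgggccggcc
Tnfrsf19: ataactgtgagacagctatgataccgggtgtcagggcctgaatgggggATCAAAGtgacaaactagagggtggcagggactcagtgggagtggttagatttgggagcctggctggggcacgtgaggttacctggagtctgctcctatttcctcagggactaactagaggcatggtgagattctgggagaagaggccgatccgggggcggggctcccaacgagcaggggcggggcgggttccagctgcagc
Capitals mark a match to 1 of 4 TCF/LEF core sequences searched on both strands. These were CTTTGAA (present in 4.46% of 32851 RefSeq promoters of this length), CTTTGAT (3.21%), CTTTGTA (3.2%) and CTTTGTT (5.03%). They differ from each other and are equally long, so a position matches at most 1 of them per strand. Tnfrsf19 has CTTTGAT on the opposite strand, beginning 202 bases before this start, and none before its second annotated start. The window of Axin2 holds none of the 4, which says only that these letters are absent there. Of the other windows of called genes, only 1 of Tcf7l2 held a match. Those of the lower targets Ephb3 and Slc2a1 held none. Among the 8 called members 4 had a window, as none was used for Fzd6, Lrp5, Dkk3 and Sfrp4. At least 1 of the 4 occurred in 14.8% of all these promoters and in 12.5% of 48 promoters of 39 members, and a match is a description, not a site.

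Of 3 measured TCF and LEF factors, which carry beta-catenin to DNA, Tcf7l2 was lower in MTT cells. Tcf7l2, on chromosome 19, read 10.43, 10.40 and 10.45 in MTT and 10.67, 10.56 and 10.61 in MPC samples. No MTT array reached the lowest MPC array, and the difference was -0.19 (standard error 0.04, limma adjusted p = 0.0200). It missed the threshold on leaving out MTT replicate 1, MTT replicate 2 or MPC replicate 1 (adjusted p 0.0646 to 0.0862). One of its 2 annotated starts has CTTTGTT on the strand of the gene, beginning 14 bases before it, and the window of the other has no match. Tcf7l1 had a difference of 0.05 and Lef1 of 0.03, neither past the threshold, and Lef1 lay on both sides of the olfactory percentile.

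Secreted antagonists, which bind Wnt proteins or their co-receptors outside the cell, included 2 that were lower, 1 that was higher and 5 that did not pass, of 8 measured. Sfrp2, a secreted decoy with a Frizzled-like domain, showed the greatest difference of all 58 members. It read 7.09, 6.995 and 6.9998 on the MTT arrays and 7.53, 7.58 and 7.41 on the MPC arrays. All MPC arrays lay above the olfactory percentile of 7.15 and all MTT arrays below it. The difference was -0.48 (standard error 0.05, 95% interval -0.60 to -0.36, limma adjusted p = 0.00112), a signal 1.40-fold lower in MTT cells, and with an MTT signal not shown to lie above background this fold may understate the change. It passed whichever of the 6 arrays was left out (limma adjusted p 0.000931 to 0.00800) and in all 9 other settings in which it was tested. The 250 bases before the start of Sfrp2, the member that differed most, stand at chr3:83766071-83766320 on the plus strand of GRCm38.p6 (RefSeq).
Sfrp2: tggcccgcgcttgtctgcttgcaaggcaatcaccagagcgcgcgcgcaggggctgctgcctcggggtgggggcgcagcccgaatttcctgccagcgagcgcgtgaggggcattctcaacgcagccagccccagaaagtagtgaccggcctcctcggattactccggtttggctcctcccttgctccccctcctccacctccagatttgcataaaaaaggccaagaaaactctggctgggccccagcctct
It holds none of the 4 TCF/LEF core sequences, and 63.6% of its bases are G or C, beside 69.2% in the window of Axin2.

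Dkk3, a member of the Dickkopf family whose action on Wnt signalling varies between tissues, read 7.03, 7.04 and 7.09 in MTT and 7.23, 7.33 and 7.43 in MPC samples. As with Sfrp2, the MPC arrays lay above and the MTT arrays below the olfactory percentile. The difference was -0.27 (standard error 0.05, limma adjusted p = 0.0185), and it missed on leaving out MTT replicate 1, MTT replicate 2 or MPC replicate 2 (adjusted p 0.0630 to 0.0761). Sfrp4, a secreted Frizzled-related protein on chromosome 13, read 8.32, 8.39 and 8.38 in MTT and 8.18, 8.19 and 8.24 in MPC samples. All its MTT arrays were higher, by 0.16 on average (standard error 0.04, limma adjusted p = 0.0299), and it missed on leaving out MTT replicate 2, MTT replicate 3, MPC replicate 1 or MPC replicate 2 (highest adjusted p = 0.119). Centred per chromosome, its difference turned to -0.03 (adjusted p = 0.750). Dkk1 and Dkk2, which block LRP5 and LRP6, had differences of -0.01 and 0.02, Sfrp5 of 0.0029, and Wif1, which binds Wnt proteins, of 0.07. Sfrp1 varied most within a line, with an SD of 0.17 in MTT and 0.20 in MPC samples, and its 95% interval was -0.22 to 0.30. Only 3 of the 8 antagonists were above the olfactory percentile on all 6 arrays. Sfrp1 was below it on all 6, and Dkk2 and Wif1 lay on both sides, so a change in these would be hard to see.

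The R-spondin branch acts by removing the ligases ZNRF3 and RNF43, which clear Frizzled from the surface, and none of its 7 genes passed. Lgr5, an R-spondin receptor and a stem cell marker that beta-catenin induces, had the smallest p. It read 11.44, 11.38 and 11.41 in MTT and 11.51, 11.47 and 11.45 in MPC samples. The MTT arrays were all lower, but the difference of -0.07 did not pass (limma adjusted p = 0.333). Lgr4, its relative, had one of -0.05 (limma adjusted p = 0.414), Znrf3 one of -0.04 and Rnf43 one of -0.01. The R-spondins themselves ran from -0.02 to 0.04, and Rspo2 and Rspo3 were at or below the olfactory percentile on every array. All 7 intervals lay between -0.16 and 0.16. Nkd1 and Nkd2, which bind Dishevelled and dampen the signal, had differences of 0.09 and 0.08 and did not pass. Nkd2, on chromosome 13, had the smaller p of them and read 6.64, 6.60 and 6.72 in MTT and 6.56, 6.58 and 6.57 in MPC samples. These values do not overlap, but all are below the olfactory percentile (limma adjusted p = 0.308).

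Whole chromosomes 13 and 19 differed between the lines, and 3 of the 8 called members lie on them. Over the genes above the median signal, the median difference was 0.20 for 368 genes of chromosome 13 and -0.11 for 337 genes of chromosome 19, and -0.03 to 0.03 for the other chromosomes. Of all genes of chromosome 13, 33.9% were called higher, and of chromosome 19, 16.4% were called lower. After subtraction of these medians, Sfrp4 stood at -0.03, Lrp5 at -0.07 and Tcf7l2 at -0.08, whereas against the median of all genes of the chromosome, dim ones included, Sfrp4 stood at 0.08, Lrp5 at -0.12 and Tcf7l2 at -0.13. When each array was centred per chromosome, Sfrp4 was no longer called, the difference of Lrp5 became -0.09 (adjusted p = 0.199) and that of Tcf7l2 -0.10 (adjusted p = 0.192). Fzd5, on chromosome 1, also lost its call there (adjusted p = 0.0594), and 4 members passed: Sfrp2, Dkk3, Fzd6 and Axin2. Of the 3 members on chromosome 13, Ror2 and Nkd2 had positive differences that did not pass, and of the 4 on chromosome 19, Dkk1 and Sfrp5 had differences close to 0.

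**Figure D3:**
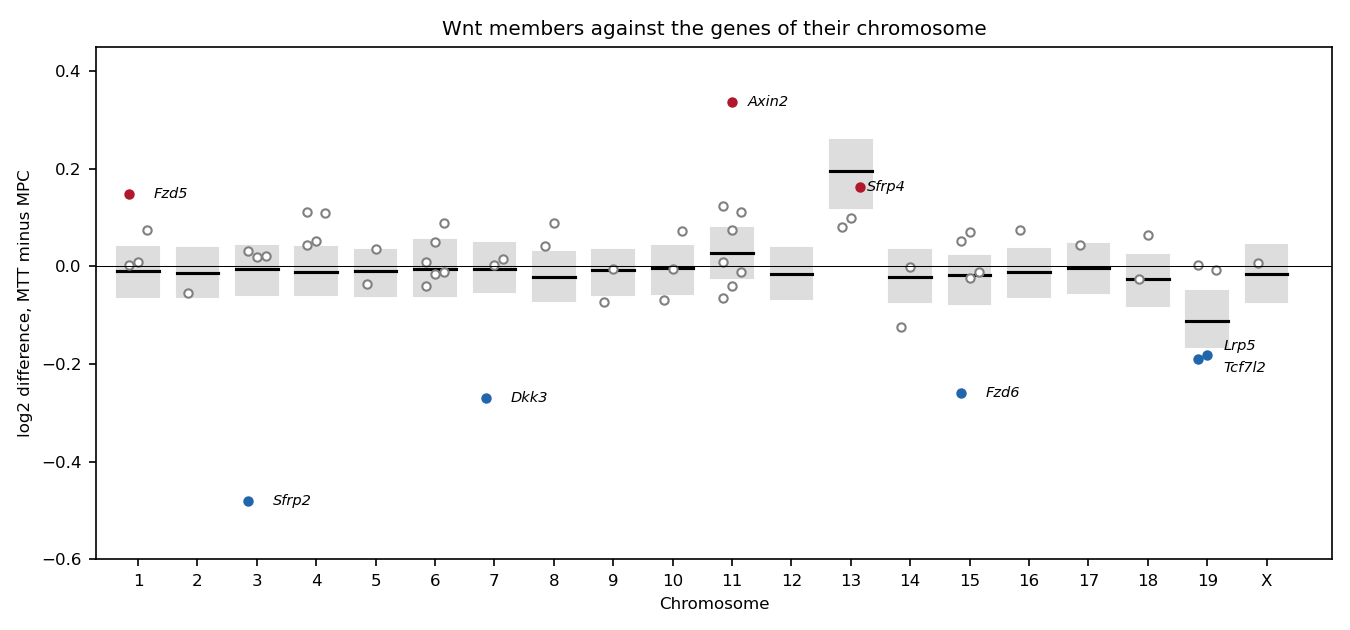
log2 difference (MTT minus MPC, vertical axis) of the members by chromosome (horizontal axis). Black lines are medians and grey boxes quartiles over the genes of a chromosome above the median signal; filled points are members past the threshold and open points the others. Sfrp4 lies within the quartiles of chromosome 13, whose median is 0.20.

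Of 127 other genes of the pathway, listed from textbook knowledge, 124 were measured, and 6 were higher and 8 lower in MTT cells, or 11.3% beside 7.87% of all genes. The ligand partners and secreted modulators held the greatest difference of these. Adgra2 (listed as Gpr124), a receptor that works with Reck on WNT7 signals, read 7.62, 7.81 and 7.79 in MTT and 8.99, 8.79 and 8.88 in MPC samples. The lines were far apart in comparison with the spread within each, and the difference was -1.14 (standard error 0.07, limma adjusted p = 3.89e-05), a signal 2.21-fold lower in MTT cells that held in all 16 other fits. It was the only one of 25 such genes called. Its partner ligands did not pass, with a difference of -0.04 for Wnt7a and 0.05 for Wnt7b. Wnt7a lay at or below the olfactory percentile on every array, so a change in it would be hard to see. Reck did not pass either, with a difference of -0.04 (limma adjusted p = 0.572), though all its MTT arrays were lower.

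Of 23 measured targets of beta-catenin, 2 were higher, 2 lower and 19 did not pass, with a median difference of -0.03. Tnfrsf19 read 8.52, 8.58 and 8.48 in MTT and 8.11, 8.11 and 8.12 in MPC samples, with a gap between lines far wider than the spread within them. Its difference was 0.41 (limma adjusted p = 0.000433) and held in all 16 other fits. Sox4, a transcription factor on chromosome 13, had one of 0.17 that turned to -0.02 after centring per chromosome and that missed on leaving out any array but MPC replicate 3 (highest adjusted p = 0.116). Ephb3, a guidance receptor, fell by 0.29 on the log2 scale (limma adjusted p = 0.00380). Slc2a1, the glucose transporter GLUT1, fell by 0.21 (limma adjusted p = 0.00956). Both also held in every other fit in which they were tested. Without 1 array the highest limma adjusted p was 0.0222 for Ephb3 and 0.0496 for Slc2a1. Axin2 and Lgr5, members described here as induced by beta-catenin, stood at 0.34 and -0.07. Targets among the other members were not listed apart.

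Of 26 other components and regulators of the destruction complex, 1 was higher and 3 were lower. Amer2, which brings APC to the membrane, rose by 0.30 on the log2 scale. Btrc, the F-box protein that marks beta-catenin for degradation, and Tnks2, a tankyrase that destabilises AXIN, fell by 0.23 and 0.25. Both lie on chromosome 19, and after centring per chromosome their differences were -0.14 (adjusted p = 0.0665) and -0.16 (adjusted p = 0.0316). Dact1, a Dishevelled-binding protein, had a difference of -0.21 that passed on leaving out MPC replicate 3 and missed for each of the other 5 arrays (highest adjusted p = 0.1002). Of 22 nuclear cofactors 2 were higher and 1 lower: Jup, the plakoglobin relative of beta-catenin, rose by 0.25, and the Groucho corepressors Tle3 and Tle1 had differences of 0.14 and -0.18. Tle3 missed whichever array was left out (highest adjusted p = 0.138), and Tle1 for all but MPC replicate 3 (highest adjusted p = 0.0996). Amer2 and Jup missed with ordinary variances (adjusted p = 0.0752 and 0.0716). Of 28 genes of planar polarity and the beta-catenin-independent branch, 1 was higher and 1 lower. Celsr3, an atypical cadherin, had a difference of 0.18 that missed on leaving out any array but MPC replicate 1 (highest adjusted p = 0.0859). Nfatc1, a calcium-regulated factor, had one of -0.19 that missed only on leaving out MTT replicate 1 (adjusted p = 0.0507).

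**Figure D4:**
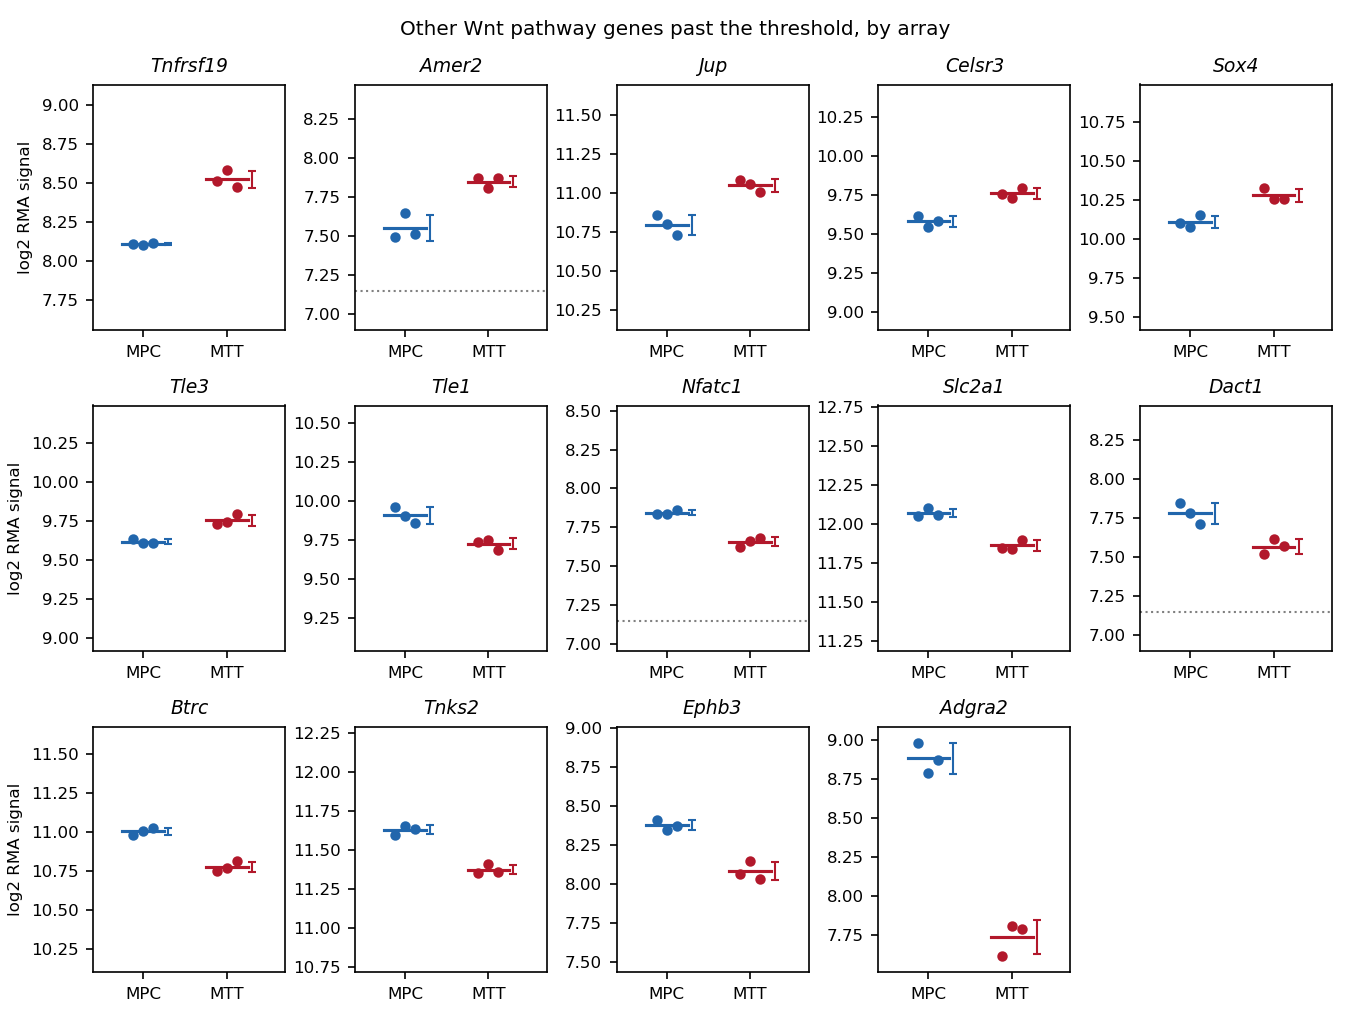
log2 RMA signal (vertical axes, all of equal span) of the 14 other pathway genes past the threshold on the 3 MPC arrays (blue) and 3 MTT arrays (red). Points are arrays, horizontal bars means of 3, error bars 1 SD and dotted lines the olfactory 95th percentile of 7.15; Adgra2 and Tnfrsf19 are the most widely separated.

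The calls were unequally firm. Sfrp2 and Fzd6 passed in every fit in which they were tested, and Axin2 in all but that with ordinary variances. Dkk3 held its call in 3 of the 6 fits without 1 array, Tcf7l2 in 3, Sfrp4 in 2, Lrp5 in 1 and Fzd5 in 0.

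**Figure D5:**
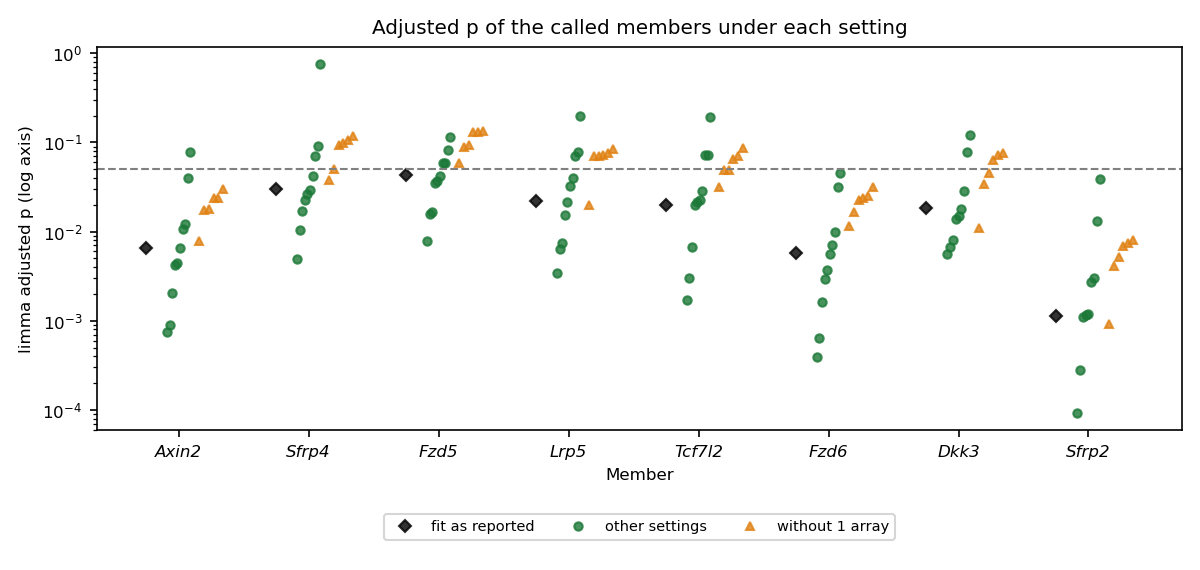
limma adjusted p (vertical log axis) of the 8 called members (horizontal axis) in the fit as reported (black), in the other settings (green) and without 1 array (orange). The dashed line is the threshold of 0.05, below which all points of Sfrp2 and Fzd6 lie.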

How the data were processed

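Gene expression was measured on 6 Affymetrix Mouse Gene 1.0 ST arrays, 3 of MTT and 3 of MPC cells. The authors deposited log2 values after RMA, which subtracts background, normalizes quantiles and summarises probe sets; the methods name Partek and R, the submitters' processing notes Affymetrix Expression Console, all without versions. An array has no read depth, and its precision rests on 3 arrays per line.

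From these values, 21640 of 34760 probe sets have 1 gene symbol (1321 have several and 11799 are unnamed here), and the brightest by mean over the arrays was kept per gene. MTT and MPC cells were compared over 19937 genes with limma 3.58.1 (lmFit and eBayes, two-sided) in R 4.3.3, with Benjamini-Hochberg adjustment; figures used matplotlib 3.10.9. Chromosomes came from the RefSeq table of GRCm38.p6 for 19918 genes, through Entrez numbers. The test was tried on simulated data. The members, the gene lists and the rule for named genes were chosen with earlier results of these data known. The rule gives each array's values for members past the threshold, for members that differ by at least 0.15 without overlap and for the member of smallest p in a role with none, and names the other pathway genes past the threshold. Alternatives dropped each array in turn, dropped dim genes (under the median signal or the olfactory percentile), averaged or kept all probe sets, normalized by cyclic loess, centred arrays on their median or per chromosome, used ordinary variances or a mean-variance trend, or blocked on replicate number.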

Additional observations from a re-analysis of the deposited data

How the results depend on the processing

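Of the 58 members, 8 passed in the fit as reported. The count was 2 with ordinary variances (3.45% of members beside 4.13% of all genes) and 3 over all probe sets (5.17% beside 2.71% of probe sets). It was 4 when centred per chromosome (6.9% beside 6.63%) and 3 to 7 without 1 array (5.17 to 12.1% beside 4.47 to 6.4%). In each of the other settings it was 7 or 8 (12.1 to 31.8% of the members tested beside 7.31 to 22.1% of all genes tested). Of 124 other pathway genes, 14 passed (11.3% beside 7.87% of all genes). The count was 9 with ordinary variances (beside 4.13% of all genes) and 9 over all probe sets (beside 2.71% of probe sets). It was 25 with a mean-variance trend (beside 12.1% of all genes). With dim genes dropped at the median signal it was 24 of 83 tested (beside 22.1%). Without 1 array it was 8 to 12 (beside 4.47 to 6.4%). The share over all genes thus moved in the same direction as these counts. Sfrp4 turned to -0.030 when centred per chromosome. Relative to the median of all genes of its chromosome, in place of those above the median signal, Sfrp4 stood at 0.082, Lrp5 at -0.12 and Tcf7l2 at -0.13. No other called member changed direction. With the replicate number as a block 7 members passed, Fzd5 losing its call (adjusted p = 0.0589), and 14 other pathway genes passed. Deviations of same-numbered arrays correlated at 0.12, 0.07 and 0.25 over genes, each array best with its own number, a hint from the data only, since no label pairs them. Over all genes, 1569 passed as reported, 824 with ordinary variances and 2416 with a mean-variance trend. Signals near the olfactory percentile limit what Sfrp2, Dkk3 and several ligands can show. The cause of these changes was not tested.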
